A study of Mus musculus with 18 samples.

Results

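The 9 genes described here encode enzymes that make serine and pass its carbon into the folate cycle. They are Phgdh, Psat1, Psph, Shmt1, Shmt2, Mthfd1, Mthfd1l, Mthfd2 and Tyms, chosen by name, and all 9 were found among the 15808 features of the deposited table. All 9 also passed the filter on low values in both fits used below, a normalized value of at least 5 in at least 3 libraries. The filter can be passed through any group, so passing says nothing of the level in the other groups.

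Serine is made from a glycolytic intermediate by PHGDH, PSAT1 and PSPH. Serine hydroxymethyltransferases split it into glycine and a one-carbon unit carried by folate, SHMT1 in the cytosol and SHMT2 in mitochondria. In mitochondria MTHFD2 and MTHFD1L turn that unit into formate, and cytosolic MTHFD1 takes formate up again for purine and thymidylate synthesis, where TYMS makes the thymidine nucleotide of DNA. Activated T cells are known to switch this pathway on as they grow and divide, and the mitochondrial enzymes are among the proteins that increase most.

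The libraries hold 3′ ends of messenger RNA from mouse CD4+ T cells with the transgenic 5CC7 receptor and from their presenting line, in 6 groups of 3. Naive CD4+ T cells from spleen and lymph node were 1 group. In 4 groups such cells had been activated for 4 days on P13.9 cells loaded with the peptide pPCC at 0.01, 0.1, 1.0 or 10 µM, and the P13.9 cells themselves, a fibroblast line that served as the antigen-presenting cell, were the last group. The series varied the dose to vary the strength of the receptor signal. All T cells share 1 receptor and all activated cultures 1 presenting line, and no label tells if the 3 libraries per group are different mice or culture wells, so a p-value reflects only how these libraries vary.

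Depth differed between groups and limits what can be read from naive cells. Reads recovered in named genes numbered 27789 to 97757 in naive, 156941 to 733009 in activated and 201627 to 352001 in P13.9 libraries, so that a single read counted as 2.17 to 6.55 normalized units in naive cells but as 0.872 at most in activated cells. The sequencing depth given in the labels is 4000000 reads for each library, and how those relate to the reads recovered here was not tested. Replicate libraries correlated over genes at 0.601 to 0.765 for naive T cells, 0.946 to 0.972 at 0.01 µM and 0.961 to 0.971 at 10 µM. The summed level of 14 fibroblast markers was 620 to 712 in P13.9, 58.6 to 78.6 in naive cells, where Col1a1, Fbn1, Thbs1, Acta2 and Lox were at 0, and then 202 to 265, 65.5 to 96.9, 49.5 to 69.8 and 24.9 to 34.3 from the lowest to the highest dose. The summed level of 12 T cell markers was 1697 to 2085 in naive, 1166 to 1864 in activated and 19.4 to 38.8 in P13.9 libraries, where Cd3e and Cd5 were at 0.

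Activated T cells held more transcript of the serine and one-carbon genes than naive cells at every dose. By limma on log2(value + 1), with p-values adjusted over all 7264 genes tested, 8 of 9 genes rose at both 0.01 and 0.1 µM, 7 at 1.0 µM and all 9 at 10 µM, and no gene fell. Of all genes tested, 21.7%, 24.9%, 23.3% and 24.3% were called higher in those comparisons. The median log2 change of the 9 genes was 1.60, 1.82, 1.75 and 2.20, beside medians of 0.03, 0.01, -0.05 and -0.07 over all genes tested. At 10 µM all 9 genes lay above every naive library without overlap, as did 22.5% of all genes. The comparisons share the 3 naive libraries and are not independent of each other. The exceptions were Mthfd1 at the 3 lower doses and Tyms at 1.0 µM. With edgeR on the recovered reads 8, 8, 8 and 9 genes were called higher, beside 26.6%, 28.5%, 27.6% and 29.6% of all genes, and the 1 not called at the 3 lower doses was Shmt1. The scale moved the centre of these comparisons: the median of all genes against naive cells was 0.33 to 0.39 with edgeR and 0.45 to 0.60 with equal library totals, and the 9 genes kept their direction under both. In these bulk libraries more cells of a type and more RNA per cell cannot be told apart.

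**Figure D1:**
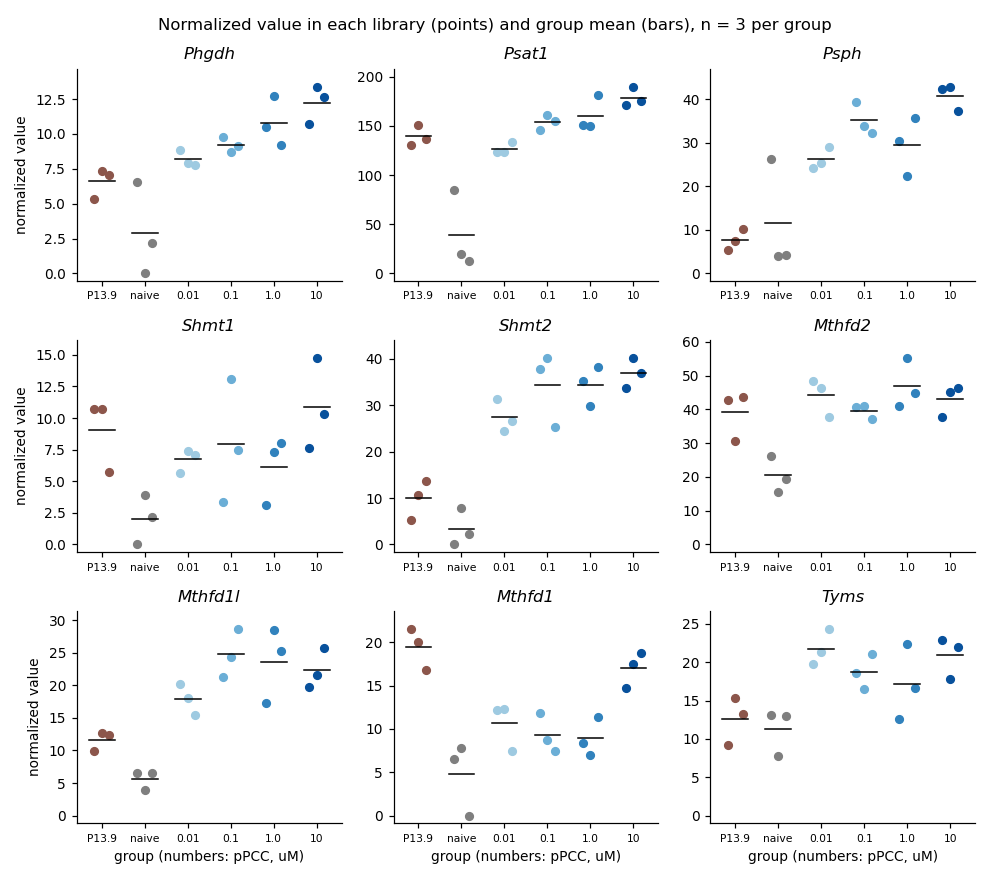
Normalized value (vertical axis, from 0) of each gene in each of 18 libraries (points) with the group mean (bars), by group (horizontal axis; numbers are the pPCC dose in µM). In every panel the naive mean lies below the 4 activated means, and Psat1 runs from 13.0 to 85.2 in naive and from 124 to 189 in activated libraries.

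Other measures moved with activation. The summed level of 11 proliferation genes was 95.3 to 282 in naive libraries, where Ccnb1 was at 0, and 477 to 646 in activated ones. The summed level of 6 myeloid markers was 65.5 to 99.6 in naive and 1.53 to 9.51 in activated libraries, with Adgre1 at 0 in naive cells. Their part in the rise of the serine and one-carbon genes was not tested. The level of 5 fibroblast markers in the activated libraries, as a share of their level in P13.9, was 34.4 ± 11.1% (SD, n = 3) at the lowest dose, then 9.40 ± 4.11% and 5.43 ± 1.09%, and 1.71 ± 0.713% at the highest, beside 4.95 ± 0.630% in naive cells. After that share of the P13.9 level was subtracted and the rest rescaled, 7, 8, 6 and 8 of the 9 genes were called higher than in naive cells by limma, beside 17.6%, 21.3%, 19.5% and 21.5% of all genes.

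**Figure D2:**
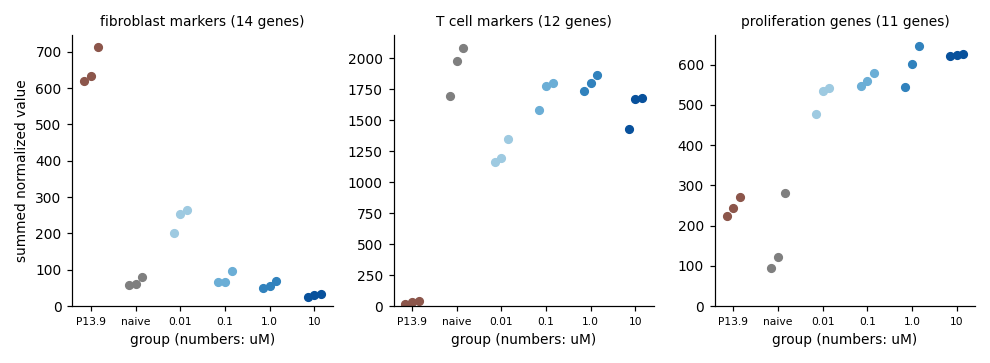
Summed normalized value (vertical axes, from 0) of fibroblast, T cell and proliferation genes in the 3 libraries of each group (points, ordered by value within a group; numbers on the horizontal axes are the pPCC dose in µM). The 3 libraries at 0.01 µM have the highest fibroblast sums of the activated groups, 202 to 265, and the lowest T cell sums, 1166 to 1351.

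The start regions of the genes are shown so that motifs known from studies of this pathway can be looked up in them. RefSeq windows of GRCm38.p6, from 250 bases before to 50 after a start site, were found for all 9 genes, 10 windows in all since Psat1 has 2. CACGTG, the E-box bound by MYC, stood in 1 gene, Tyms, and in 7.15% of the 32817 windows in the table. TGATGNAA, a form of the composite element bound by ATF4, stood in none of the 9 and in 3.97% of windows. GCGGGAA, an E2F-like motif, stood in 1 gene, Mthfd1, and in 4.6% of windows, and GGGCGG, an Sp1-like motif, in 6 genes and 35.6% of windows. Both strands were searched, and GGGCGG lies 7 bases after the start of the Tyms E-box. Capitals mark the E-box in Tyms (minus strand, chr5:30073576-30073875) and the E2F-like motif in Mthfd1 (plus strand, chr12:76254982-76255281). The window of Shmt2 (minus strand, chr10:127522395-127522694), the gene with the largest rise in the fit of all 15 T cell libraries, held none of the 4 motifs. Windows of Phgdh and Mthfd2 held none of them either. No match says only that these letters are not in this window.
Tyms: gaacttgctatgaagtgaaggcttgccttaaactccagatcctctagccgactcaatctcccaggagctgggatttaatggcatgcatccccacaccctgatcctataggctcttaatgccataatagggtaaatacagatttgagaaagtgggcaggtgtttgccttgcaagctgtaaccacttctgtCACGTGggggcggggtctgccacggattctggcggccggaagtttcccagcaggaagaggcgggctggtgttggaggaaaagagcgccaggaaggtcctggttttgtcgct
Mthfd1: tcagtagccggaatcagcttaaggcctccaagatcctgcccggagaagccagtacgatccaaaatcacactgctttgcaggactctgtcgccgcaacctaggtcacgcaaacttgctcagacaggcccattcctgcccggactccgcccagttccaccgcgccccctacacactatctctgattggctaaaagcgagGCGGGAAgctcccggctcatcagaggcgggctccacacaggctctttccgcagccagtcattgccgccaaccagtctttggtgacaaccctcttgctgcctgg
Shmt2: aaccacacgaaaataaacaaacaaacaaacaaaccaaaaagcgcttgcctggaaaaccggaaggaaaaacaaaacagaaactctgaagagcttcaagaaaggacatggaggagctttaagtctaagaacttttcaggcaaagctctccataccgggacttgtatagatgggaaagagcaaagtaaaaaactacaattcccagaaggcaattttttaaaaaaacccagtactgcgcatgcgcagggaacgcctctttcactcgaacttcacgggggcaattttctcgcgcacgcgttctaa

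Phgdh, Psat1 and Psph form the serine synthesis branch, and all 3 rose at every dose. Phgdh (GRCm38 chr3:98313171-98339969), the first enzyme of the branch, had 6.55, 0 and 2.17 in naive libraries, from 2 reads in all. Its values were 8.88, 7.88 and 7.76 at 0.01 µM, 9.76, 8.72 and 9.11 at 0.1 µM, 10.5, 12.7 and 9.22 at 1.0 µM, and 10.7, 13.4 and 12.6 at 10 µM. Every activated library lay above every naive library, and the group means rose in the order of the doses, 8.17, 9.19, 10.8 and 12.2. Phgdh was 2.20 ± 0.52 (SE of limma, n = 3 per group) higher at 10 µM on the log2 scale, with an adjusted p of 0.00206 by limma and 0.000197 by edgeR. The ratio of reads was 5.33 with a 95% counting interval of 1.45 to 44.4, which covers counting error only, as do all such intervals here. A pseudogene, Phgdh-ps1, is annotated on chromosome 7, and how reads shared by both were counted is not given in the sources used here.

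Psat1 (chr19:15905123-15925059), the aminotransferase of the branch, had the best supported counts, 1037 to 2073 reads per activated group. Its naive values were 85.2, 19.5 and 13.0, so the library with the fewest reads stood far above the other two. The activated values were 124, 124 and 133 at 0.01 µM, 145, 161 and 155 at 0.1 µM, 151, 150.1 and 181 at 1.0 µM, and 171, 189 and 175 at 10 µM. No activated library reached down to the naive range. Psat1 rose by 2.62 ± 0.43 at 10 µM on the log2 scale (adjusted p = 0.000111 by limma, 1.23e-10 by edgeR), with a read ratio of 6.44 (4.31 to 10.1).

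Psph (chr5:129765558-129787443), the phosphatase that releases serine, had 26.2, 3.90 and 4.33 in naive libraries, again with the highest value in the shallowest library, where it stands for 4 reads. It had 24.3, 25.3 and 29.0 at 0.01 µM, 39.3, 34.0 and 32.3 at 0.1 µM, 30.4, 22.4 and 35.7 at 1.0 µM, and 42.4, 42.8 and 37.4 at 10 µM. The groups at 0.1 and 10 µM lay above all naive libraries, while 2 libraries at 0.01 µM and 1 at 1.0 µM fell below the highest naive one. Psph rose by 2.23 ± 0.46 at 10 µM (adjusted p = 0.000799 by limma, 5.52e-07 by edgeR). At 0.01 µM the call was lost without naive replicate 3 (adjusted p = 0.0541 by limma) and without naive replicate 2.

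Shmt1 and Shmt2 encode the cytosolic and the mitochondrial enzyme of the same step, and their transcripts did not pass the tests equally. Shmt2 (chr10:127517123-127522444) had 0, 7.81 and 2.17 in naive libraries, from 3 reads. It had 31.3, 24.3 and 26.7 at 0.01 µM, 37.8, 40.1 and 25.3 at 0.1 µM, 35.2, 29.8 and 38.1 at 1.0 µM, and 33.6, 40.1 and 37.0 at 10 µM. The lowest activated library was more than 3 times the highest naive one. Shmt2 rose by 3.22 ± 0.52, 3.52 ± 0.52, 3.54 ± 0.52 and 3.64 ± 0.52 from the lowest to the highest dose, the largest log2 change of the 9 genes at each dose in this fit, with adjusted p from 2.8e-05 to 0.000116 by limma and from 6.32e-08 to 1.88e-06 by edgeR. That rank rests on the shallowest library, where Shmt2 had no read: without naive replicate 1 the change at 10 µM was 2.84 for Shmt2 and 3.40 for Psat1, and Psat1 was ahead at every dose. Without naive replicate 2 the change of Shmt2 was 4.41. The read ratio at 10 µM was 10.7 (3.62 to 51.9).

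Shmt1 (chr11:60788897-60811265) had 0, 3.90 and 2.17 in naive libraries, from 2 reads. These values lay below the filter value of 5, so the fit of 15 T cell libraries tested Shmt1 through the activated groups alone. It had 5.69, 7.42 and 7.08 at 0.01 µM, 3.35, 13.1 and 7.46 at 0.1 µM, 3.15, 7.35 and 7.99 at 1.0 µM, and 7.63, 14.7 and 10.3 at 10 µM. The groups at 0.01 and 10 µM did not overlap with naive cells, and 1 library at 0.1 µM and 1 at 1.0 µM lay below the highest naive value. By limma Shmt1 was called at all 4 doses, with log2 changes of 1.63 ± 0.57, 1.69 ± 0.57, 1.44 ± 0.57 and 2.21 ± 0.57. By edgeR the adjusted p was 0.056, 0.0551 and 0.057 at the 3 lower doses and 0.00457 at 10 µM, and at each of the lower doses the limma call was lost without at least 1 library. The read ratio at 10 µM was 4.62 (1.25 to 38.6), and the counting intervals at the 3 lower doses included 1.

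Mthfd2 and Mthfd1l carry the mitochondrial arm of the folate cycle, and both rose at every dose. Mthfd2 (chr6:83305704-83326011), the dehydrogenase and cyclohydrolase, had 26.2, 15.6 and 19.5 in naive libraries, from 17 reads. It had 48.6, 46.4 and 37.8 at 0.01 µM, 40.9, 41.0 and 37.3 at 0.1 µM, 40.9, 55.2 and 44.9 at 1.0 µM, and 37.8, 45.2 and 46.4 at 10 µM. All 12 activated libraries lay between 37.3 and 55.2, above the naive range. Mthfd2 rose by 1.10 ± 0.20, 0.95 ± 0.20, 1.18 ± 0.20 and 1.07 ± 0.20, with adjusted p from 0.000182 to 0.00105 by limma and from 4.83e-06 to 7.04e-05 by edgeR, and the call held without any single library of each comparison.

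Mthfd1l (chr10:3972892-4167081), which releases formate, had 6.55, 3.90 and 6.50 in naive libraries, from 5 reads. It had 20.3, 18.1 and 15.5 at 0.01 µM, 21.3, 24.4 and 28.6 at 0.1 µM, 17.3, 28.4 and 25.2 at 1.0 µM, and 19.8, 21.6 and 25.7 at 10 µM. Each activated library was more than 2 times the highest naive one. Mthfd1l rose by 1.53 ± 0.26, 1.97 ± 0.26, 1.89 ± 0.26 and 1.83 ± 0.26 (adjusted p from 1.28e-05 to 0.000179 by limma, 2.01e-05 to 0.000339 by edgeR). Its highest mean was at 0.1 µM, 24.8 ± 3.63 (SD, n = 3), and its mean at 10 µM was 22.3 ± 3.02.

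Mthfd1 (chr12:76254406-76319820), the cytosolic enzyme that takes up formate, had 6.55, 7.81 and 0 in naive libraries, from 3 reads. It had 12.2, 12.3 and 7.42 at 0.01 µM, 11.9, 8.72 and 7.46 at 0.1 µM, 8.40, 7.02 and 11.4 at 1.0 µM, and 14.7, 17.5 and 18.8 at 10 µM. Of the activated groups the one at 10 µM alone lay above all naive libraries. By limma Mthfd1 rose at 10 µM, by 2.14 ± 0.61 (adjusted p = 0.00715), and the log2 changes of 1.49 ± 0.61, 1.33 ± 0.61 and 1.27 ± 0.61 at the lower doses had adjusted p of 0.0531, 0.0741 and 0.089. By edgeR it was called at all 4 doses, with adjusted p of 0.00701, 0.0161, 0.019 and 0.000191. P13.9 cells held 19.4 ± 2.40 of this transcript, so that at 0.01 µM the P13.9 share times that level came to 6.68 of a mean of 10.6. With that share subtracted, the change at 0.01 µM was 0.23 (adjusted p = 0.846 by limma) and that at 10 µM 2.14 (adjusted p = 0.0508 by limma).

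Tyms (chr5:30038546-30073645), thymidylate synthase, had 13.1, 7.81 and 13.0 in naive libraries, from 10 reads. It had 19.8, 21.3 and 24.3 at 0.01 µM, 18.6, 16.6 and 21.1 at 0.1 µM, 12.6, 22.4 and 16.6 at 1.0 µM, and 22.9, 17.8 and 22.0 at 10 µM. At 1.0 µM 1 library lay within the naive range, and the other groups did not overlap with it. Tyms showed the smallest log2 change of the 9 genes at every dose in the fit of 15 libraries, 0.92 ± 0.26, 0.71 ± 0.26, 0.56 ± 0.26 and 0.86 ± 0.26, with adjusted p of 0.00908, 0.0302, 0.0799 and 0.011 by limma and 0.00214, 0.00799, 0.0122 and 0.00159 by edgeR. Without naive replicate 3 the change of Mthfd1 was smaller than that of Tyms at the 3 lower doses (0.48 and 1.03 at 0.01 µM). By limma the Tyms call at 0.1 µM was lost without any of 3 libraries. The read ratio at 10 µM was 1.85 with a counting interval of 0.988 to 3.90. A transcribed pseudogene, Tyms-ps, is annotated on chromosome 10, and reads shared with it cannot be told apart here.

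**Figure D3:**
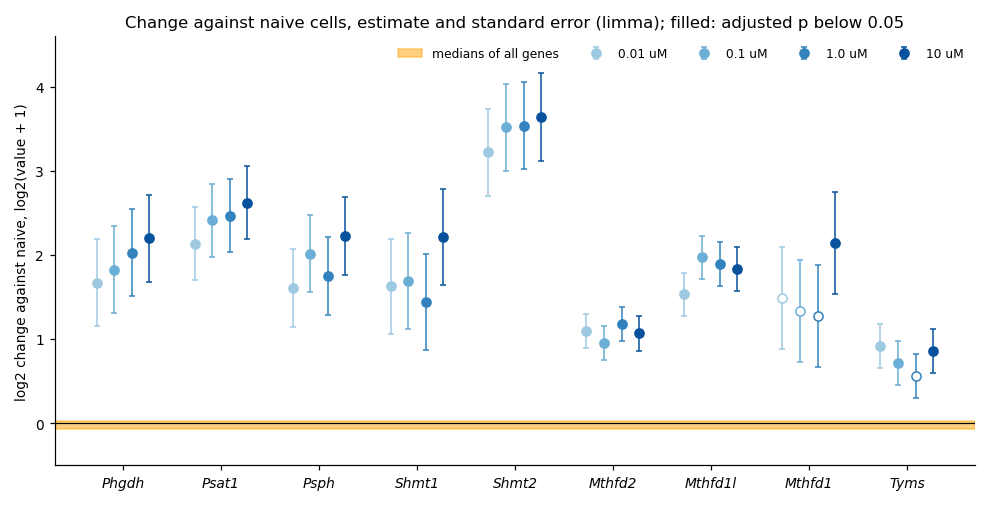
Log2 change against naive cells on the log2(value + 1) scale (vertical axis) for the 9 genes (horizontal axis) at 4 pPCC doses (shades), with the standard error of the limma fit. Filled points passed an adjusted p of 0.05, and the orange band spans the medians over all genes, -0.07 to 0.03. Shmt2 has the largest changes in this fit, 3.22 to 3.64, a rank that Psat1 takes without naive replicate 1, and the open points are Mthfd1 at 3 doses and Tyms at 1.0 µM.

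Among the activated cells the dose comparison asks whether a stronger receptor signal gives more of these transcripts. From 0.01 to 10 µM, 7 of 9 genes had a positive log2 change, with a median of 0.49 beside -0.03 over all genes, and none was called by the limma fit of the 15 T cell libraries, where 8.15% of all genes were called. In that fit 0 of 9 had an unadjusted p below 0.05, beside 21.8% of all genes, and the spread was shared with the naive libraries, which vary more. In a fit of the 12 activated libraries alone limma called 3 genes higher, beside 14.8% of all genes, edgeR on the 15 libraries called 4, beside 15.5%, and DESeq2 5, beside 17.2%. The libraries at 10 µM lay above all those at 0.01 µM for 6 genes, Phgdh, Psat1, Psph, Shmt1, Shmt2 and Mthfd1, as they did for 21.8% of all genes.

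The serine synthesis genes made up most of the calls between these doses. Psat1 was 0.49 ± 0.12 higher at 10 than at 0.01 µM on the log2 scale in the 12 libraries (95% interval 0.24 to 0.74, adjusted p = 0.00449 by limma, 0.0213 by edgeR on 15 libraries and 6.53e-05 by DESeq2), with a read ratio of 1.41 (1.32 to 1.50). Psph was 0.62 ± 0.17 higher (0.26 to 0.99, adjusted p = 0.011 by limma, 0.00749 by edgeR), with a read ratio of 1.57 (1.36 to 1.81). Phgdh was 0.53 ± 0.20 higher (0.10 to 0.95), called by edgeR (adjusted p = 0.0395) and DESeq2 (0.0222) and not by limma in the 12 libraries (0.0533). Mthfd1, the fourth gene that edgeR called, was 0.65 ± 0.24 higher (0.14 to 1.17, adjusted p = 0.0493 by limma, 0.0288 by edgeR).

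The other 5 genes were not called by either fit. Shmt2 was 0.42 ± 0.18 higher (0.03 to 0.80, adjusted p = 0.0864 by limma in the 12 libraries, 0.0609 by edgeR), and DESeq2 called it (adjusted p = 0.0259). Shmt1 was 0.59 ± 0.37 higher (-0.20 to 1.37) and Mthfd1l 0.30 ± 0.20 higher (-0.12 to 0.72). The values of Mthfd2 and Tyms overlapped between these doses, with log2 changes of -0.03 ± 0.16 (-0.36 to 0.30) and -0.06 ± 0.20 (-0.49 to 0.37) and read ratios of 0.957 (0.849 to 1.08) and 0.998 (0.838 to 1.19). For these 2 genes the sign differed between tools.

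The share of P13.9 transcript fell as the dose rose, and its part in these differences was not tested beyond a subtraction that takes the P13.9 profile as fixed. Psat1 and Mthfd1 are abundant in P13.9 cells, at 139 ± 10.6 and 19.4 ± 2.40, and Psph and Shmt2 are not, at 7.63 ± 2.41 and 9.92 ± 4.22. With the share subtracted and the rest rescaled, in the 12 libraries, the mean of Psat1 was 121 ± 5.98 at 0.01 and 179 ± 10.1 at 10 µM, a log2 change of 0.56 (adjusted p = 0.00839 by limma). The mean of Psph was 37.0 ± 9.46 and 41.4 ± 3.18, a log2 change of 0.19 (adjusted p = 0.524 by limma), and that of Shmt2 36.9 ± 5.36 and 37.4 ± 3.48, a log2 change of 0.02 (adjusted p = 0.941). Mthfd1 had 6.28 ± 5.45 and 16.9 ± 2.11 (adjusted p = 0.0691 by limma). Of the 9 genes Psat1 was the 1 called after the subtraction, beside 14.2% of all genes called higher. The subtraction rests on 5 marker genes, on which naive cells also scored 4.95%, and was combined with the fit of 12 libraries after seeing the data.

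**Figure D4:**
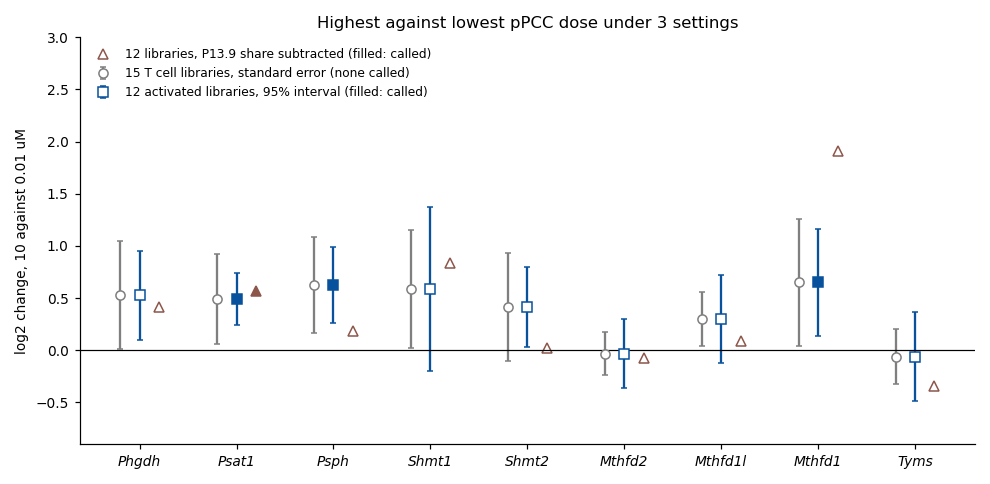
Log2 change from 0.01 to 10 µM pPCC (vertical axis) for each gene (horizontal axis) in the limma fit of the 15 T cell libraries (circles, standard error), of the 12 activated libraries (squares, 95% interval) and of these 12 with the P13.9 share subtracted (triangles, no error drawn). Filled symbols passed an adjusted p of 0.05, and Psat1 is filled in both fits of the 12 libraries, at 0.49 and 0.56.

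Library numbers in the descriptions form 2 stretches of unstated meaning, the first with naive cells, P13.9, 0.01 µM and 1.0 µM and the second with 0.1 µM and 10 µM. Within a stretch Psat1 had a read ratio of 1.29 (1.20 to 1.39) for 1.0 over 0.01 µM and 1.17 (1.09 to 1.26) for 10 over 0.1 µM. The groups did not overlap in either pair, and the share of all genes without overlap is not given for these pairs. After quantile rescaling the log2 change of Psat1 from 0.01 to 1.0 µM was -0.02, so the direction of that pair depends on the scaling. The same pairs gave 1.15 (0.973 to 1.36) and 1.12 (0.957 to 1.31) for Psph, 1.30 (0.971 to 1.74) and 1.31 (0.968 to 1.79) for Phgdh, and 1.23 (1.05 to 1.44) and 1.09 (0.925 to 1.28) for Shmt2. Limma called 0 of 9 genes in both pairs, beside 4.3% and 0.0964% of all genes. It had 0 and 0 at an unadjusted p below 0.05, beside 16.8% and 5.11% of all genes. EdgeR called 0 in both, with 0 and 1 at an unadjusted p below 0.05 beside 34.6% and 12.8% of all genes. Limma in the 12 activated libraries called 0 in both, with 1 and 1 beside 35.9% and 15.6%. DESeq2 called Psat1 in the first pair (adjusted p = 0.0177) and none in the second.

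Single steps of the dose series gave no call in the limma fit of 15 libraries, and 1 under the alternatives, Psph from 0.01 to 0.1 µM with array weights (adjusted p = 0.0344 by limma). From 0.01 to 0.1 µM, from 0.1 to 1.0 µM and from 1.0 to 10 µM limma called 0 of 9 genes each, beside 5.59%, 0% and 0.0826% of all genes. In each step 0 of 9 had an unadjusted p below 0.05, beside 19.4%, 1.51% and 5.23% of all genes. EdgeR called 0 of 9 in each step, with 1, 0 and 3 at an unadjusted p below 0.05 beside 36.5%, 3.96% and 15.3% of all genes, and DESeq2 called 0 in each. Limma in the 12 activated libraries also called 0 in each, with 3, 0 and 2 at an unadjusted p below 0.05 beside 41.0%, 6.66% and 17.3% of all genes. Mthfd1 showed the largest step, 8.93 ± 2.23 at 1.0 µM and 17.0 ± 2.09 at 10 µM, with a read ratio of 1.90 (1.44 to 2.51). The groups did not overlap, and the share of all genes without overlap is not given for this step. That step had an adjusted p of 0.0557 by edgeR and 0.0505 by DESeq2. Over the 4 doses the slope per 10-fold dose was 0.15 ± 0.04 for Psat1, 0.16 ± 0.05 for Psph and 0.18 ± 0.06 for Phgdh in the 12 libraries, the 3 genes called by limma there (adjusted p = 0.00592, 0.037 and 0.0461, beside 11.7% of all genes called with a positive slope). In the 15 libraries limma called 0 of 9 slopes, beside 6.53% of all genes, with 0 at an unadjusted p below 0.05 beside 19.1%. With the stretch of library numbers as a term limma called 0 in the 12 libraries (adjusted p = 0.133 for Psat1). The share of all genes called in that fit is not given, so this count tells nothing particular to these genes.

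P13.9 cells expressed the whole set. Against naive T cells 7 of 9 were higher by limma, fitted on the 18 libraries over 8179 genes, beside 29.9% of all genes, and the exceptions were Psph and Tyms. Phgdh, 1 of the 7, was not called by edgeR (adjusted p = 0.0521) and lost its limma call without any of 3 libraries. Against T cells at 10 µM 4 of 9 were lower in P13.9, beside 15.6% of all genes, and none was higher. The median of all genes in this comparison was 0.22 by limma and -0.04 by edgeR. Shmt2 was 9.92 ± 4.22 in P13.9 and 36.9 ± 3.23 at 10 µM, a log2 difference of -1.87 ± 0.51 (adjusted p = 0.00652 by limma). Psph was 7.63 ± 2.41 and 40.8 ± 3.03, a difference of -2.31 ± 0.45 (adjusted p = 0.000391 by limma), and Mthfd1l was 11.7 ± 1.49 and 22.3 ± 3.02, a difference of -0.88 ± 0.25 (adjusted p = 0.00927). Tyms was 12.6 ± 3.14 and 20.9 ± 2.71 (adjusted p = 0.042 by limma), and this call was lost when any of 4 of the 6 libraries was left out. EdgeR called 7 of 9 lower, beside 30.3% of all genes, with Mthfd2, Psat1 and Phgdh added. Mthfd1 was at 19.4 ± 2.40 and 17.0 ± 2.09, Shmt1 at 9.06 ± 2.87 and 10.9 ± 3.58, and neither was called by limma or edgeR. The sign of the Mthfd1 difference changed with the scaling.

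The order of the group means differed between the 9 genes. Naive cells had the lowest mean for 8 genes, and for Psph the lowest was in P13.9 (7.63), an order that rests on naive replicate 1 at 26.2, since the other naive libraries had 3.90 and 4.33. The highest mean was at 10 µM for Phgdh, Psat1, Psph, Shmt1 and Shmt2, at 1.0 µM for Mthfd2 (47.0 ± 7.34), at 0.1 µM for Mthfd1l, at 0.01 µM for Tyms (21.8 ± 2.30) and in P13.9 for Mthfd1. Neighbouring doses were not called for any gene by edgeR or by limma without array weights. Gene profiles over the 6 group means were compared by the root mean square difference of centred log2 levels. Candidates were the 1465 or 1466 other genes with a mean of at least 20. The nearest gene has the smallest of that many distances, and how small it would be by selection alone was not tested. The naive point rests on few reads, 3 for Shmt2 and 5 for Mthfd1l. The nearest genes were the cyclin Ccna2 for Shmt2 (0.06), Cdca8 for Mthfd1l (0.06), the tubulin Tubb5 for Psat1 (0.07), the proteasome subunit Psmb6 for Phgdh (0.07), Pdia3 for Mthfd2 (0.08), Tmpo for Tyms (0.08), Cad for Shmt1 (0.12), Csk for Psph (0.14) and Spr for Mthfd1 (0.16). Among the 9 themselves Mthfd1l and Phgdh were closest (0.20) and Shmt2 and Mthfd1 farthest apart (1.08).

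Genes around the pathway were compared between 10 µM and naive cells by list. Of 6 tested genes that use formate in purine synthesis or supply thymidylate, 5 rose and none fell by limma, where 24.3% of all genes were higher and 32.8% lower: Gart and Atic, which add the one-carbon units of the purine ring, by 2.64 ± 0.42 and 1.53 ± 0.29, and Dut, Tk1 and Dtymk, which supply thymidine nucleotides, by 2.52 ± 0.32, 3.07 ± 0.52 and 2.77 ± 0.64. All 5 were also called by edgeR, and the list's median of 2.58 stood beside -0.07 over all genes.

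Of 5 tested genes of the folate cycle and folate transport, 1 rose and 2 fell, where 24.3% of all genes were higher and 32.8% lower. The folate carrier Slc19a1 had no read in naive cells and 16.6 ± 3.27 at 10 µM, at least 4.72-fold higher against a floor of 3 reads over the naive group (adjusted p = 2.8e-08 by limma, 2.16e-06 by edgeR). Slc25a32, the mitochondrial folate carrier, fell from 26.6 ± 9.02 to 1.29 ± 0.872 (adjusted p = 4.72e-06 by limma). Aldh1l2, which oxidises the mitochondrial one-carbon unit, fell from 17.4 ± 3.81 to 0.756 ± 0.412 (adjusted p = 2.08e-06 by limma). Both lay below the filter value of 5 at 10 µM and passed the filter through libraries of other groups. A single naive read counts as 2.17 to 6.55, so depth limits the size of both falls. Of 7 tested genes of glycine cleavage and serine handling 3 rose and none fell. Gcat, at 0 reads in naive cells, was at least 2.11-fold higher, and Sptlc1 rose by 1.76 ± 0.60. Sptlc2 rose by 1.47 ± 0.60 and was not called by edgeR (adjusted p = 0.283). With no naive read, Gcat and Slc19a1 passed the filter through activated libraries alone. Of 7 genes of the methionine cycle and transsulfuration Ahcy and Mtap rose and Ahcyl2 fell by limma, and Ahcyl2 was not called by edgeR (adjusted p = 0.181).

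ATF4 is a transcription factor known to activate serine synthesis and one-carbon genes under amino acid stress. Its transcript fell from 311 ± 130 in naive to 103 ± 1.88 at 10 µM. The log2 change was -1.48 ± 0.29 (adjusted p = 0.000574 by limma, 0.00078 by edgeR). The transcript does not measure the activity of the ATF4 protein, which was not tested. The stress factor Ddit3 fell from 16.2 ± 4.09 to 1.23 ± 0.267. Ddit3 lay below the filter value of 5 at 10 µM and passed the filter through libraries of other groups. Of 7 tested genes on the list of Atf4 and its known targets outside the pathway, 3 rose and 2 fell, beside 24.3% and 32.8% of all genes. Those that rose were Trib3, Ddit4 and Asns, the asparagine synthetase, by 1.91 ± 0.55, 2.03 ± 0.45 and 2.18 ± 0.72. Myc, a factor that drives growth in activated T cells, had 2 reads in naive cells and rose by 1.83 ± 0.68 at 10 µM (adjusted p = 0.0312 by limma, 0.0475 by edgeR). Between 10 and 0.01 µM limma called 1 gene of these 5 lists, which held 5, 7, 7, 6 and 7 tested genes, beside 8.15% of all genes. It was Atf5, with a log2 change of -1.18 ± 0.27 (adjusted p = 0.0122 by limma), and P13.9 cells held 223 ± 1.63 of that transcript.

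**Figure D5:**
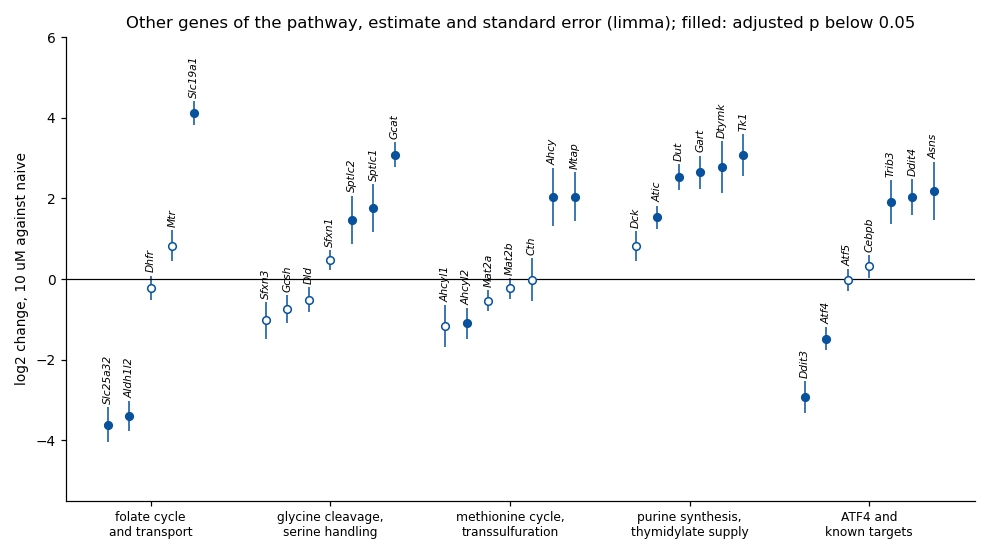
Log2 change from naive cells to 10 µM pPCC (vertical axis) for the tested genes of 5 lists around the pathway (horizontal axis), with the standard error of the limma fit. Filled points passed an adjusted p of 0.05. Gart, Atic, Dut, Tk1 and Dtymk lie between 1.53 and 3.07, and Slc25a32 and Aldh1l2 at -3.61 and -3.40.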

How the data were processed

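Per the submitters' processing notes, the tools were STAR 2.6.1d, HTSeq 0.9.1, FastQC 0.11.8 and DESeq2, and the build was mm10. Which annotation and strand setting they used is not stated. The deposited signal is a read count per gene that the authors divided by 1 size factor per library (median of ratios), per the file header. Whole reads were recovered from its steps for all but 1 of 284544 values (tolerance 1e-05). The 110 features without a name, 12.4 to 15.6% of naive reads and 1.94 to 5.36% elsewhere, were left out of tests.

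The main test was limma 3.58.1 (R 4.3.3) with a trend on log2(value + 1) for genes of at least 5 in at least 3 libraries, over 15 T cell or all 18 libraries, with Benjamini-Hochberg adjustment and a threshold of 0.05. Because whole reads could be recovered, edgeR 4.0.16 (quasi-likelihood) and DESeq2 1.42.0 were run on them, and limma and edgeR were tested on simulated data. There limma called more unchanged genes higher against the shallow naive libraries than edgeR did, and recovered fewer small changes between doses. By the simulation alone, limma calls against naive cells could be too many and its dose calls too few. In the 15 T cell libraries edgeR, not limma, called more of all genes higher than in naive cells. From the lowest to the highest dose the shares were 26.6%, 28.5%, 27.6% and 29.6% by edgeR, beside 21.7%, 24.9%, 23.3% and 24.3% by limma. Whether limma called too many genes against naive cells or too few between doses in these libraries was not tested. Read ratios carry 95% intervals from counts alone, since no molecular identifiers are described. All 9 genes were named whatever their values, and up to 6 called genes per other list, smallest adjusted p first. The genes and lists were chosen with earlier results of these data known. Alternatives covered the pseudocount, filter, tool, scaling, libraries in the fit, replicate block, P13.9 share and each left-out library.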

Additional observations from a re-analysis of the deposited data

How the results depend on the processing

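At each dose against naive cells the 9 genes kept a positive change under every alternative in which they were tested. The counts called fell to 4 at each dose with a mean of at least 20, where 4 genes were tested, and to 4, 5 and 4 at 0.01, 0.1 and 1.0 µM with only the 2 groups compared. At 10 µM that fit and array weights each left 7. Leaving out 1 library gave 7 to 8, 6 to 8, 6 to 8 and 9 to 9 from the lowest to the highest dose. From 0.01 to 10 µM the count was 4 with edgeR, 5 with DESeq2, 4 with array weights, 3 in the 12 activated libraries and 1 with the P13.9 share subtracted as well. Apart from array weights, these stood beside 15.5%, 17.2%, 14.8% and 14.2% of all genes called higher. For the slope the counts in the same order were 3, 5, 2, 3 and 1. Counts given here without a share of all genes show only how the calls depend on the processing. They tell nothing particular to these genes. Array weights gave 1 from 0.01 to 0.1 µM and 1 from 0.01 to 1.0 µM, where DESeq2 also gave 1. Leaving out 1 library from the limma fit of 15 libraries, which called 0 in every dose comparison, gave 0 to 0. This says nothing of the calls by the other fits. P13.9 against naive gave 3 with a mean of at least 20, 4 with DESeq2 and 6 to 8 without 1 library. P13.9 against 10 µM gave 2 with that mean, 7 with edgeR and 3 to 4 without 1 library.

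Several small changes turned sign, and the cause was not tested. Mthfd2 from 0.01 to 10 µM was 0.00456 with edgeR and 0.0899 with DESeq2, and ran from -0.140 to 0.0564 without 1 library, with 0.0369 and 0.00413 without replicates A and B at 0.01 µM. Tyms was 0.00689, 0.0968 and, with array weights, 0.00628, and ran from -0.126 to 0.0457, with 0.0171 without replicate C at 0.01 µM. The slope of Mthfd2 was -0.0222 with quantile rescaling and -0.0132 with array weights and ran from -0.0192 to 0.0397, with -0.00311 without replicate C at 10 µM, and that of Tyms was 0.0197 with DESeq2. In P13.9 against 10 µM, Mthfd1 was -0.0677 after quantile rescaling, -0.0885 with equal totals, -0.214 by edgeR and -0.0352 by DESeq2. In that comparison Shmt1 ran from -0.455 to 0.0213 and Mthfd2 from -0.238 to 0.0123 without 1 library. In P13.9 against naive cells, Psph was 0.325 by edgeR, 0.403 by DESeq2, 0.441 with array weights and 0.204 with equal totals, and ran from -0.519 to 0.717 without 1 library, with 0.113 without P13.9 replicate 1, while Tyms ran from -0.0731 to 0.346. From 0.01 to 1.0 µM Psat1 was -0.0199 after quantile rescaling, and Psph and Shmt2 were -0.255 and -0.0416 with the P13.9 share subtracted. From 0.1 to 10 µM Shmt2 ran from -0.0794 to 0.243 without 1 library.

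With the replicate letters as a replicate block 0 of 9 genes were called in the 7 dose comparisons, and calls over all genes from 0.01 to 10 µM went from 592 to 402. Libraries of 1 letter did not deviate together (18 correlations with a median of -0.03, 3 of them over 0.1). No block could be fitted against naive cells or P13.9, whose columns carry numbers. Equal totals, only the 2 groups compared, and the subtraction in 12 libraries were added after seeing the data. With 2 to 24 reads of a gene in the naive group, depth limits the size of each change against naive cells.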

Other observations

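The balance of the mitochondrial and the cytosolic dehydrogenase transcript was looked at after the values had been seen, and has no test. The log2(value + 1) of Mthfd2 minus that of Mthfd1 within a library was 1.98 on average at 0.01 µM (1.83 to 2.20), between 1.70 and 2.18 at 0.1 µM and 2.29 at 1.0 µM (1.89 to 2.81). At 10 µM it was 1.30 ± 0.03 (SD, n = 3), between 1.26 and 1.32, so all 3 libraries lay below the other 9 activated libraries. That low value was not particular to 10 µM: it was 0.964 in P13.9 (0.593 to 1.33) and 2.37 in naive cells (0.916 to 4.36). The same difference for Shmt2 and Shmt1 and for Psat1 and Phgdh was also looked at, and overlapped between 10 µM and each other dose. The values of Mthfd2 overlapped across the doses, and those of Mthfd1 at 10 µM lay above those at the other doses. Both genes were counted from 3′ ends, so the difference compares reads, not levels per length.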
